A study of Mus musculus with 4 samples.

Results

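The genes described here are 33 genes of the G1/S transition and of DNA replication, taken as a list of gene names that was drawn up with earlier results of these data known. On the arrays they were read by 59 targets, of 44170 in all, where a target is a set of probes designed to 1 transcript. RNA was measured on 4 single-colour arrays labelled as Neuro2a (N2a) cells, a mouse neuroblastoma line. By the labels, 2 arrays held RNA of cells transfected with a scramble siRNA, a control of no chosen target, and 2 held RNA of cells given an siRNA to Men1, which encodes menin, a scaffold of a histone methyltransferase complex. Both groups were transfected, and the labels name no harvest time, siRNA dose or separate cultures. The p-values therefore rest on spread between arrays alone, partly pooled over all targets, and that spread may be technical. Each SE given below is pooled in the same way, so it is not the scatter of a target's own arrays. Values are given throughout as scramble siRNA replicates 1 and 2 against Men1 siRNA replicates 1 and 2.

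A cell enters S phase when cyclin-dependent kinases release E2F transcription factors from the retinoblastoma protein. The E2F factors then switch on cyclin E, Cdc6, Cdt1, the Mcm genes and the enzymes that make nucleotides. In G1, Cdc6 and Cdt1 load the ring of Mcm2 to Mcm7 onto replication origins, which is called licensing. In S phase the ring is turned into a moving helicase by Cdc45, the GINS complex and Mcm10, and polymerases copy the strands behind it on a sliding clamp of Pcna. Menin has been studied as a regulator of cell cycle inhibitors and of proliferation in endocrine cells, and the question here is how transcripts of this machinery differ between the groups.

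Intensities are linear values summarised per target by the authors. A level of 100 was taken as well above background, since the series' value table lists 20620 targets, namely those with no array under 100, and random probes read 42.8 to 52.3. Array medians lay between 145.9 and 151.2. The Men1 target with the higher mean read 6985 and 6222 against 2764 and 4109, a log2 difference of −0.97 ± 0.36 (SE, n = 2 arrays per group; limma adjusted p = 0.336), and the other Men1 target −0.19 ± 0.33. Markers of the labelled cell type were partly dim: the sympathoadrenal gene Th read 95.01 to 142 on the 4 arrays. Bright on every array were the neuronal gene Stmn2 (14670.2 to 24964) and the granin genes Chga (3178 to 6539) and Chgb (3177 to 5781), and also the haemoglobin gene Hba-a1 (5462 to 15453), a red cell marker. Whether the RNA is of N2a cells alone is therefore in doubt and was not tested, and each difference below is one between these arrays as labelled.

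Across the set, most targets of the replication genes had lower values with Men1 siRNA, by small amounts, and none passed the test. The median log2 difference (Men1 siRNA minus scramble siRNA) over the 59 targets was −0.35, beside 0.06 over all targets, and 41 of the 59 were negative (69.5%, beside 45.8% of all targets). The other 18 were positive, beside 54.2% of all targets. The arrays of the groups did not overlap, with the Men1 siRNA pair under the scramble siRNA pair, for 25 of the 59 targets (42.4%), beside 21.3% of all targets. The reverse order held for 6 of the 59 (10.2%), beside 25.3% of all targets. Relative to the scramble siRNA mean, the median target lay at −0.29 on Men1 siRNA replicate 1 and at −0.34 on replicate 2. The median gap between the arrays of a group was 0.27 log2 units with scramble siRNA and 0.39 with Men1 siRNA. Without scramble siRNA replicate 2 the median difference was −0.20. With values under 100 set to 100, which makes differences between dim values 0 by construction, it was −0.05. Over the 33 of the 59 targets that reached 100 on all 4 arrays it was −0.40, a description only, since the same arrays chose them. In bulk RNA, fewer dividing cells and less of a transcript per cell cannot be told apart.

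Limma's test, fitted on all targets with Benjamini-Hochberg adjustment, called 138 targets lower (0.312%) and 12 higher (0.0272%) at an adjusted p under 0.05, and 0 of the 59 in either direction. The smallest adjusted p among the 59 was 0.202. Before adjustment, 8 targets had a p under 0.05 and a negative sign, 1 each of 8 genes (Cdk2, Mcm2, Mcm3, Mcm10, Pcna, Tk1, Tyms and Ung), beside 7.41% of all targets. Another 2 had a positive sign, of Cdc25a and Rfc3, beside 6.16% of all targets. The 8 became 5 without scramble siRNA replicate 1 and without either Men1 siRNA array, and the 2 became 1 without either scramble siRNA array. The smallest absolute log2 difference among the 150 called targets was 2.68, and fitted differences of the 59 lay between −1.81 and 1.33. Of the 59 targets, 50 differed by less than 1 log2 unit. The median half-width of their 95% confidence intervals was 0.88 log2 units, so a target whose test was not passed is not shown to be equal.

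**Figure D1:**
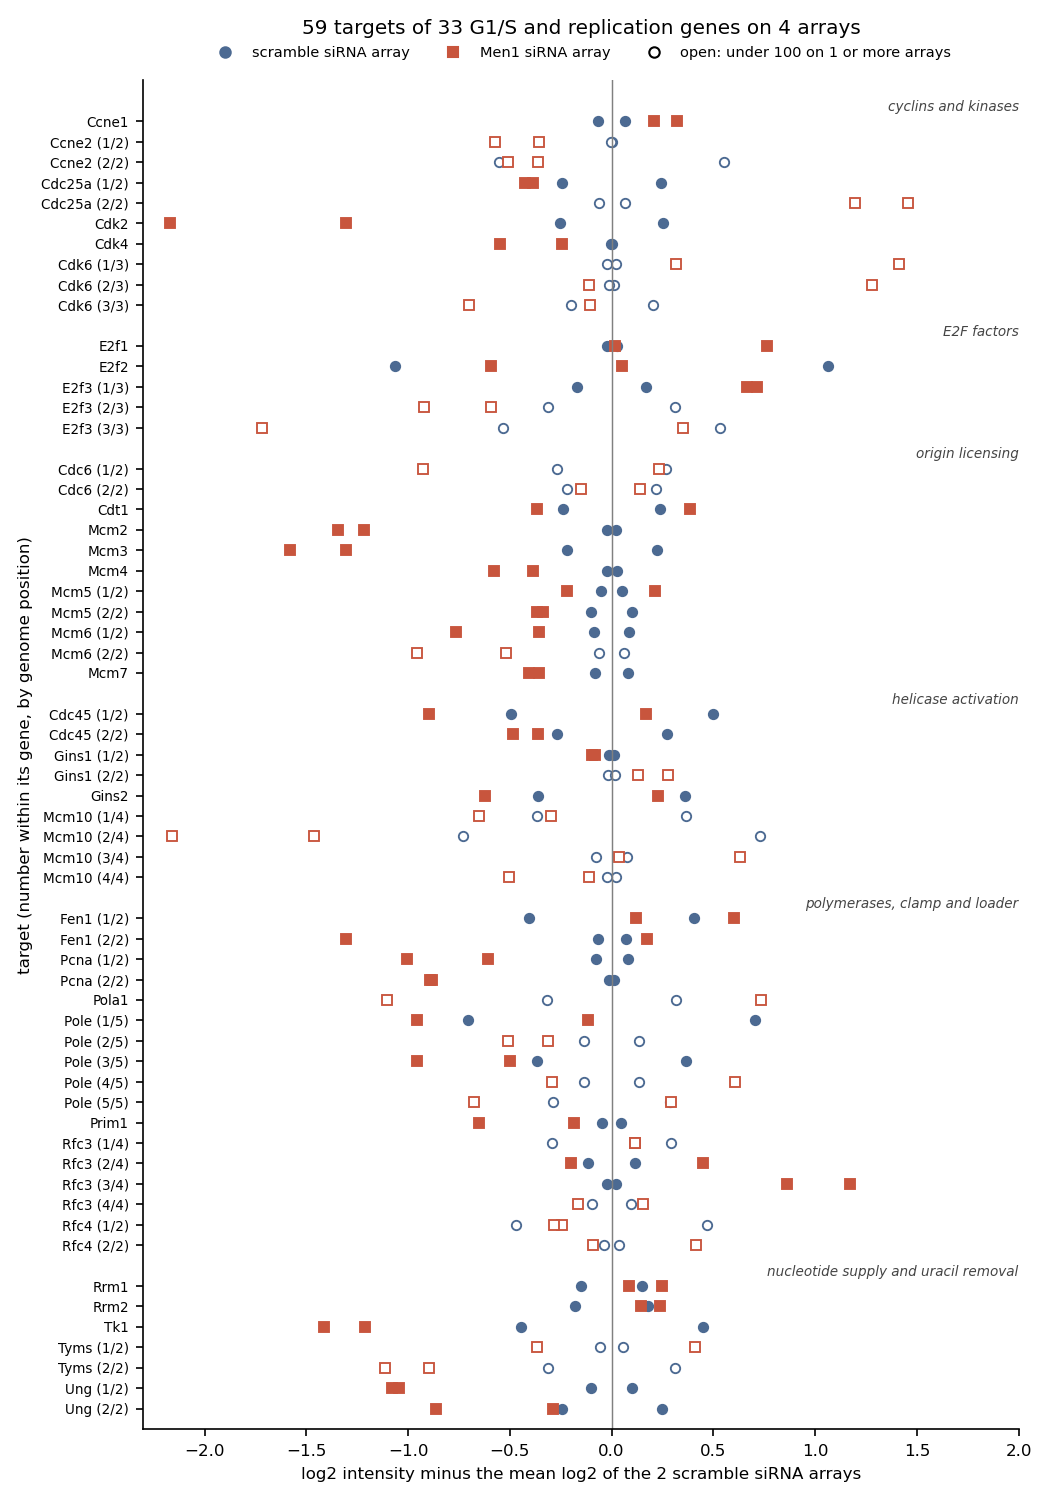
Every target of the 33 genes on each of the 4 arrays, as log2 intensity minus the mean log2 of the 2 scramble siRNA arrays (x axis, log2 units), with targets on the y axis in order of role; circles are scramble siRNA arrays, squares Men1 siRNA arrays, and open symbols targets under 100 on 1 or more arrays. Both squares lie left of both circles for 25 of the 59 targets and right of them for 6.

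Not every target was bright enough to be read with confidence. Of the 59, 33 reached 100 on all 4 arrays, 12 on some arrays and 14 on none. For 7 genes (Ccne2, Cdc6, Cdk6, Mcm10, Pola1, Rfc4 and Tyms) no target reached 100 on all 4 arrays, and the sizes of their differences are less certain than those of the other 26 genes.

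The cyclins and kinases that drive entry into S phase did not share a direction. Cdk2, the kinase of cyclin E (chromosome 10, from 128134999 on build MM9), read 789 and 557 against 148 and 269. The groups do not overlap, and the log2 difference was −1.74 ± 0.43 (SE, n = 2 per group; adjusted p = 0.204), 0.300 times the scramble level. Cdk4, a kinase of D-type cyclins, was far above background, with 9665 and 9715 against 6634 and 8175, a log2 difference of −0.40 ± 0.33 (adjusted p = 0.638). Cyclin E1 (Ccne1) was of the opposite sign, with 681 and 746 against 823 and 889 (0.26 ± 0.32, adjusted p = 0.755). Cyclin E2 (Ccne2) had −0.47 and −0.43 at its targets, both under 100 on all 4 arrays.

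Cdk6, the other kinase of D-type cyclins, was dim and its 3 targets disagreed. The target with the highest mean read 90.3 and 93.0 against 114 and 244, at least 1.67-fold higher by the bound that sets the scramble siRNA arrays to 100. It did not pass (adjusted p = 0.461). The bound was 1.14-fold without Men1 siRNA replicate 2 and 2.44-fold without Men1 siRNA replicate 1. The other Cdk6 targets had 0.59, from 1 Men1 siRNA array of 71.2 beside 3 arrays between 27.2 and 29.6, and −0.40.

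Cdc25a encodes the phosphatase that removes inhibitory phosphates from Cdk2, and its pair of targets had opposite signs. Target BC046296 (chromosome 9, 109778463 to 109795271 on MM9), annotated as a complete coding sequence, read 177 and 126 against 114 and 111, a log2 difference of −0.41 ± 0.35 (adjusted p = 0.646). Target AK142334 (109778809 to 109795151), a cDNA of embryonic lung, read 89.8 and 82.2 against 236 and 197, at least 2.16-fold higher by the bound, with a fitted difference of 1.33 ± 0.33 (adjusted p = 0.205). The groups do not overlap at either target, so the array values give Cdc25a no single direction. The target that was bright enough on all 4 arrays is the one with the negative sign, by a small margin over 100.

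**Figure D2:**
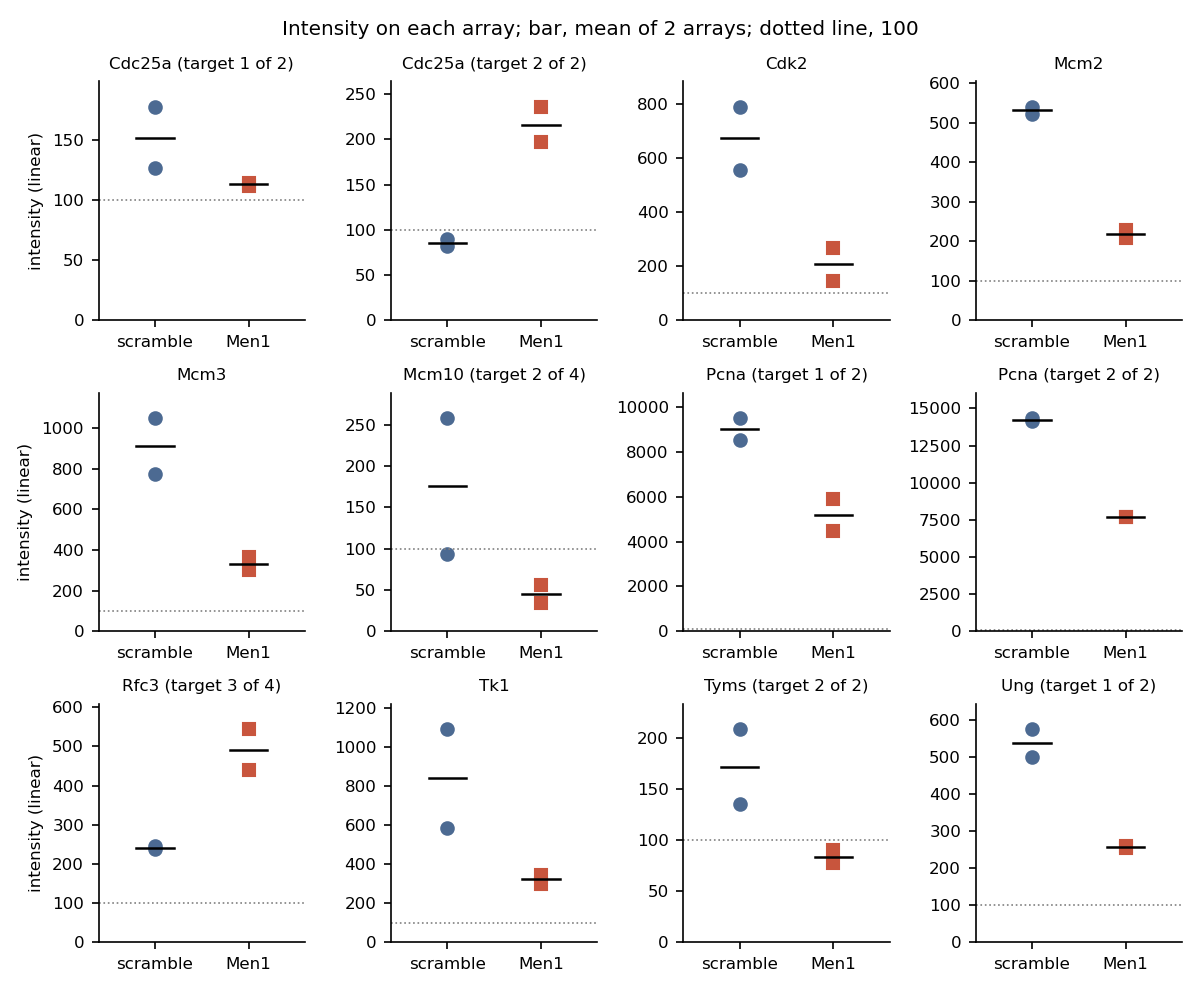
Linear intensity (y axis) on each array for the 10 targets with an unadjusted p under 0.05 and for the second target of Cdc25a and of Pcna, with scramble siRNA arrays as circles and Men1 siRNA arrays as squares (x axis, group); bars are means of 2 arrays and the dotted line is 100. In each panel the 2 groups are apart, downwards with Men1 siRNA except at 1 Cdc25a target and 1 Rfc3 target.

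The activator E2F factors showed no common direction. E2f1 read 441 and 457 against 454 and 762, so that 1 Men1 siRNA array lay above the other 3 arrays (0.39 ± 0.39, adjusted p = 0.693). E2f2 read 588 and 134 against 187 and 291, where the scramble siRNA arrays enclosed the Men1 siRNA arrays (−0.27 ± 0.72). The log2 difference of E2f2 was 0.80 without scramble siRNA replicate 1.

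E2f3 has 3 targets, which did not agree in sign. The target with the highest mean, BC156226, read 146 and 185 against 260.0 and 269, a log2 difference of 0.69 ± 0.33 (adjusted p = 0.432). The spans of both other E2f3 targets have their lower coordinate at 30008714 on chromosome 13 (MM9), that of BC156226 at 30001773. Target AK154168 read 101 and 156 against 83.3 and 66.5, at least 1.26-fold lower by the bound. That bound was 1.01-fold without scramble siRNA replicate 2 and 1.56-fold without scramble siRNA replicate 1. Target AK165892 had −0.68 ± 0.74 with overlapping groups. E2f3 is known to be made as a long and a short isoform from different starts, and which isoform each target reads was not tested.

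Origin licensing genes were nearly all negative. The 6 subunits of the Mcm2 to Mcm7 ring had 8 targets, all of them negative, with a median log2 difference of −0.52; 1 Mcm5 target, at −0.00, turned to 0.02 with median and 0.04 with quantile normalization. At 7 of the 8 the Men1 siRNA pair was under the scramble siRNA pair, beside 21.3% of all targets, and 1 of these 7 pairs, of Mcm6, is near the level of the random probes. None of the 8 passed in limma, and 2 had an unadjusted p under 0.05 and a negative sign, beside 7.41% of all targets.

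Mcm2 (chromosome 6, from 88833467 on MM9) and Mcm3 (chromosome 1, from 20793094) had the lowest log2 differences of the ring. Mcm2 read 539 and 523 against 228 and 209. The arrays of each group agreed closely, and the difference was −1.28 ± 0.32 (SE, n = 2 per group; adjusted p = 0.208), 0.412 times the scramble level. Mcm3 read 771 and 1048 against 364 and 301. That is a difference of −1.44 ± 0.35 (adjusted p = 0.202), the smallest adjusted p of the 59 targets.

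Other ring subunits showed smaller differences. Mcm4 read 896 and 866 against 590.1 and 674 (−0.48 ± 0.32). Mcm7 read 2474 and 2206 against 1827 and 1765 (−0.38 ± 0.32). For both genes the groups are apart, by less than the difference seen for Mcm2. Mcm6 had −0.56 ± 0.34 at the target with 2094 and 1858 against 1162 and 1538, and −0.74 ± 0.35 at a target under 100 on all 4 arrays. Mcm5 read 747 and 802.5 against 898 and 664 at 1 target, so that the Men1 siRNA arrays enclosed the scramble siRNA arrays. The fitted difference there was −0.00 ± 0.34, with a 95% confidence interval of −0.85 to 0.84. At the other Mcm5 target, 737 and 848 stood against 613 and 626 (−0.35 ± 0.33). Intervals of the ring's subunits overlap one another, and differences between subunits were not tested.

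The loading factors had values near 0 or were dim. Cdt1, which brings the Mcm ring to origins, read 323 and 232 against 212 and 357, with overlapping groups (0.01 ± 0.41, 95% confidence interval −0.99 to 1.01). Cdc6, the ATPase that loads the ring with Cdt1, had −0.35 ± 0.49 and −0.01 ± 0.35 at its targets, and each of them was under 100 on 1 or more arrays.

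Factors that turn the loaded ring into a helicase differed among themselves. Cdc45 read 363 and 528 against 340.4 and 313 at the target with the higher mean (−0.42 ± 0.36, adjusted p = 0.641), and the groups do not overlap. Its other target had −0.36 ± 0.53 with overlapping groups. The GINS subunit gene Gins1 read 221 and 225 against 208 and 210.1 (−0.09 ± 0.32), where groups without overlap come with a difference of almost nothing. Its other target, under 100 on all 4 arrays, had 0.21. Gins2, another GINS subunit gene, had −0.20 ± 0.45 with overlapping groups.

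Mcm10, which helps start unwinding and binds polymerase alpha, has 4 targets. At the one with the highest mean, values were 77.5 and 128 against 81.2 and 63.5 (−0.47 ± 0.40), with overlapping groups. Target BC120687 read 258 and 93.6 against 34.8 and 56.3 (fitted difference −1.81 ± 0.57, adjusted p = 0.279). Both Men1 siRNA arrays lay near the random probes, so only a bound of at least 1.55-fold lower can be given. It rests on scramble siRNA replicate 1: without that array the fitted difference was −1.08 and no bound remained, and without scramble siRNA replicate 2 the bound was 2.58-fold. The remaining Mcm10 targets had −0.31 and 0.33, under 100 on all 4 arrays.

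Pcna, the sliding clamp, had a pair of targets that agreed in sign and size. Target BC010343 (chromosome 2, from 132075212 on MM9) read 14127 and 14353 against 7667 and 7723. That is 0.540 times the scramble level, a log2 difference of −0.89 ± 0.32 (SE, n = 2 per group; adjusted p = 0.324). The second target read 8505 and 9491 against 5893 and 4474, a difference of −0.81 ± 0.34 (adjusted p = 0.382). Both targets lie far above background. Pcna at BC010343 was the single target of the set to pass under another setting of those run, with an adjusted p of 0.0421 under a prior that follows intensity and of 0.0463 with values under 100 set to 100.

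Polymerase and primase genes were mostly negative without passing. Pole, the catalytic subunit of the leading-strand polymerase, has 5 targets, of which 4 were negative. At the one with the highest mean, 293 and 487 stood against 267 and 195 (−0.73 ± 0.40, adjusted p = 0.486), without overlap. A second target read 323 and 122 against 183 and 102, with overlap (−0.54 ± 0.57), and the others had −0.41, −0.19 and 0.15. Prim1, the primase that makes RNA primers, read 389 and 415 against 353 and 256 (−0.42 ± 0.35). Pola1, the catalytic subunit of polymerase alpha, read 77.9 and 121 against 162 and 45.2, so that the Men1 siRNA arrays enclosed the others.

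Genes of the clamp loader and of flap removal went against the general direction or gave none. Rfc3, a clamp loader subunit, has 4 targets. The one with the highest mean read 764 and 896 against 720 and 1131 (0.12 ± 0.38), with overlapping groups. Target AK042393 (chromosome 5, 152446990 to 152453783 on MM9) read 245 and 238 against 544 and 439, a difference of 1.02 ± 0.33 (adjusted p = 0.291), with no overlap of the groups. Its lower coordinate lies inside the span of the first, which runs from 152445399 to 152453754. The other Rfc3 targets, under 100 on all 4 arrays, had 0.12 and −0.01. Rfc4, another loader subunit, had −0.26 and 0.16.

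Fen1 encodes the nuclease that trims flaps between Okazaki fragments, and its 2 bright targets had opposite signs. Target AK042942 read 681 and 1193 against 981 and 1367 (0.36 ± 0.42). Target AK187493 read 369 and 335 against 397 and 142 (−0.56 ± 0.53), where a single Men1 siRNA array lay apart. The groups overlap at both, so no direction can be given for Fen1.

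**Figure D3:**
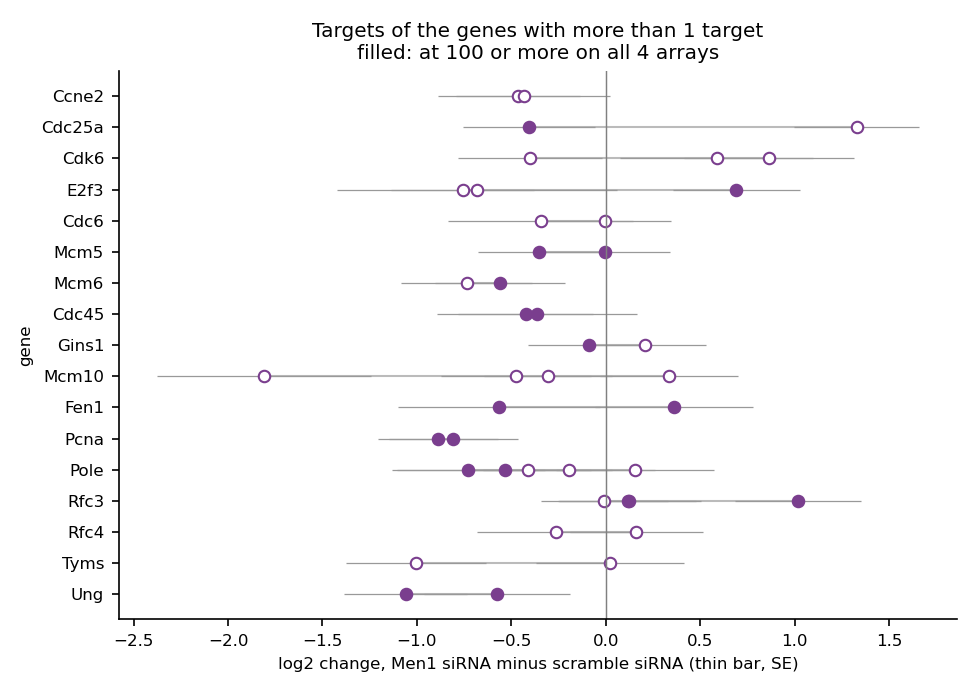
Log2 difference (x axis, Men1 siRNA minus scramble siRNA, with the SE as a thin bar) of each target of the 17 genes with more than 1 target (y axis); filled points reached 100 on all 4 arrays. All targets of a gene share a sign for 7 genes and differ in sign for 10, with fitted values from −1.81 to 0.33 for Mcm10, whose targets are all under 100 on 1 or more arrays, and from −0.41 to 1.33 for Cdc25a.

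Genes that supply nucleotides did not share a direction. Tk1, the thymidine kinase of the salvage route, read 1093 and 588 against 302 and 346, a difference of −1.31 ± 0.41 (SE, n = 2 per group; adjusted p = 0.283). The scramble siRNA arrays of Tk1 differ by much more than the Men1 siRNA arrays, yet the groups are apart. Tyms, the thymidylate synthase of the de novo route, read 135 and 209 against 90.3 and 77.6 at the target with the higher mean, at least 1.68-fold lower by the bound (adjusted p = 0.332). That bound was 1.35-fold without scramble siRNA replicate 2 and 2.09-fold without scramble siRNA replicate 1. The other Tyms target had 0.02 ± 0.39.

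Ribonucleotide reductase makes the deoxyribonucleotides, and both of its subunits here had small positive values. Rrm1, the large subunit, read 1548 and 1258 against 1659 and 1482 (0.17 ± 0.33, 95% confidence interval −0.65 to 0.98). Rrm2, the small subunit that is made in S phase, read 141 and 180.1 against 187 and 176 (0.19 ± 0.34). The groups overlap for both genes.

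Ung removes uracil from DNA, and both of its targets were negative without overlap of the groups. Target BC011039 read 502 and 576 against 255 and 261, a difference of −1.06 ± 0.32 (adjusted p = 0.273). The other target read 449 and 632 against 436 and 293 (−0.58 ± 0.39). Arrays of 1 group agreed closely at the first target and less so at the second.

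Seen by role, the 11 targets of licensing genes included 10 negative ones (median −0.38), and the 9 of helicase activation 7 (median −0.31). Polymerases, clamp and loader had 11 negative of 17 (median −0.19), and nucleotide supply with Ung 4 of 7 (median −0.58). Cyclins and kinases, counted with Cdc25a, had 6 of 10 (median −0.40), and E2F factors 3 of 5 (median −0.27). All targets of the series had a median of 0.06, with 45.8% negative, and no difference between roles was tested. Targets of 1 gene count separately here, such as the 5 of Pole.

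Among genes of the same pathway outside the set, negative and positive targets were nearly even, while per gene more were negative. Of 67 further G1/S and replication genes with 145 targets, 0 targets passed in limma. At an unadjusted p under 0.05, 8 targets were lower (5.52%, beside 7.41% of all targets) and 1 was higher (0.69%, beside 6.16%). Their median log2 difference was −0.01, and 73 of the 145 were negative. Groups did not overlap downwards for 37 targets (25.5%, beside 21.3% of all targets) and upwards for 32 (22.1%, beside 25.3%). At the target with the highest mean, 40 of the 67 genes were negative (59.7%, beside 45.5% of all genes). There the groups did not overlap downwards for 24 genes (35.8%, beside 21.7%) and upwards for 13 (19.4%, beside 25.8%). Pole2, the second subunit of polymerase epsilon, read 584 and 168 against 61.4 and 41.9, at least 3.13-fold lower by the bound (adjusted p = 0.197). The bound was 1.68-fold without scramble siRNA replicate 1 and 5.84-fold without scramble siRNA replicate 2. E2f8, a repressor of the E2F family, read 1090 and 333 against 203 and 197 (−1.59 ± 0.59), with −0.74 without scramble siRNA replicate 1 and −2.45 without scramble siRNA replicate 2. Ccnd2, which encodes cyclin D2, read 1365 and 1901 against 4232 and 4229 (1.39 ± 0.35, adjusted p = 0.206), without overlap of the groups. The nuclease-helicase gene Dna2 read 91.6 and 120 against 36.3 and 62.2, at least 1.05-fold lower, a bound that was lost without scramble siRNA replicate 2.

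The neighbouring stages of the cycle were read on the same arrays. Of 63 targets of 29 mitosis genes, 47 were negative (74.6%), with a median of −0.53. Groups did not overlap downwards for 29 of the 63 (46.0%, beside 21.3% of all targets) and upwards for 5 (7.9%, beside 25.3%). Of the 63, 0 passed in limma, and 17 had an unadjusted p under 0.05 and a negative sign (26.98%, beside 7.41%). Top2a, the topoisomerase that untangles sister chromatids, read 1567 and 1086 against 507 and 473 (−1.41 ± 0.36, adjusted p = 0.208). The spindle gene Tpx2 had −1.27 ± 0.35, the centromere gene Incenp −1.24 ± 0.36 and the proliferation marker Mki67 −1.13 ± 0.33. Cdk inhibitors, which hold cells before S phase, had 9 positive targets of 13, with a median of 0.66. Of the 13, 0 passed in limma, and at an unadjusted p under 0.05 there were 4 higher (30.77%, beside 6.16%) and 1 lower (7.69%, beside 7.41%). Cdkn2a, whose products inhibit Cdk4 and stabilise p53, read 70.8 and 70.6 against 167 and 178, at least 1.73-fold higher by the bound (adjusted p = 0.204). Cdkn1b, which encodes p27, an inhibitor of cyclin E with Cdk2, read 200.02 and 248 against 475 and 462 (1.07 ± 0.33, adjusted p = 0.276). Cdkn2d, an inhibitor of Cdk4 and Cdk6, read 570.1 and 714 against 1067 and 1493 (0.98 ± 0.36), and Cdkn1a, which encodes p21, read 1735 and 1605 against 2511 and 2754 (0.66 ± 0.32). The groups do not overlap for any of these 4 inhibitors, which were named for the smallest p of their list, so this is no separate result. Over the 13 targets, groups did not overlap upwards for 7 (53.8%, beside 25.3% of all targets) and downwards for 2 (15.4%, beside 21.3%). At the target with the highest mean, 2 of the 7 genes of the list were negative. Whether these lists differ from the 33 genes was not tested.

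**Figure D4:**
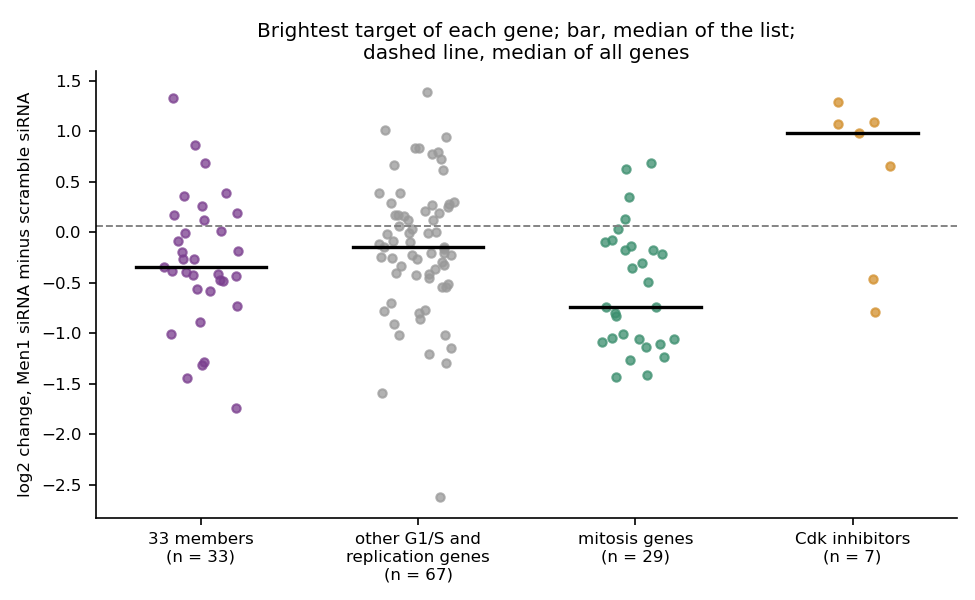
Log2 difference (y axis, Men1 siRNA minus scramble siRNA) at the target with the highest mean of each gene, for the 33 genes, 67 other G1/S and replication genes, 29 mitosis genes and 7 Cdk inhibitors; bars are list medians and the dashed line is the median of all genes, 0.06. List medians were −0.35, −0.14, −0.73 and 0.98.

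Markers of other cell types also differed between the groups, and targets were called in the epithelial and fibroblast lists alone. Of all targets, 45.8% were negative and 54.2% positive. Limma called 0.312% of all targets lower, and 7.41% had an unadjusted p under 0.05 and a negative sign. In the forebrain, red cell, glial and neuroblast lists 0 targets were called, and their counts by sign are descriptions only. All 14 targets of epithelial markers were negative (median −3.52, 7 called lower), and their summed intensity was 22493 to 31780 with scramble siRNA and 1757 to 3175 with Men1 siRNA. Of 22 fibroblast targets 20 were negative (median −1.24, 4 called lower), with sums of 67076 to 68704 against 11719 to 12240. Of 18 immune and endothelial targets 15 were negative (median −1.05, 0 called by limma, 9 with an unadjusted p under 0.05), with sums of 8792 to 15064 against 3818 to 4083. Forebrain neuron markers had 12 positive of 13 (median 0.60), summing to 13857 to 21542 against 26293 to 28191. Red cell markers had 7 positive of 7 (median 0.86, sums of 13949 to 26590 against 35632 to 43070), and glial markers 15 of 23 (median 0.25, sums of 20746 to 25211 against 25052 to 28600). Neuroblast markers had 14 positive of 20 (median 0.32, sums of 23453 to 30269 against 38559 to 39029). No marker was listed at 0. At their brightest target, Hbb-bh1 was under 100 on all 4 arrays, and Cldn3, Cldn4, Grhl2 and Tek were on both Men1 siRNA arrays. The part of these cell types in the values of the replication genes was not tested.

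E2F factors bind promoters at short GC-rich sites, and the promoters of the set were searched for such letters. RefSeq promoters (build GRCm38.p6, 250 bases before to 50 after each start) were given for 28 of the 33 genes, at 32 starts. No entry was found for Ccne2, Gins1, Gins2, Mcm4 and Pole. Searched were TTTCCCGC, TTTGGCGC, TTTCGCGC and TTTGCCGC on both strands, of which neighbouring hits may overlap. At least 1 of these was found in 12 of the 32 promoters (37.5%), of 12 genes, beside 2.26% of all 32851 promoters of the same length. CCAAT, the letters bound by the factor NF-Y, was found on either strand in 19 of the 32 (59.4%), beside 37.4% of all. Both kinds of letters stood together in 10 of the 32 (31.2%), beside 0.962% of all. TTTGAA, the cell cycle genes homology region of many mitosis genes, was in 5 of the 32 (15.6%), beside 17.9% of all.

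The sites below are shown because they are the letters shared by members of this set; capitals mark the motif, with up to 6 bases of flank, read 5′ to 3′ along the gene. They were chosen to show Mcm genes beside a kinase, a phosphatase, a loading factor and a clamp loader subunit, and positions count from 1 at the start.
Mcm3, 39 to 46: ggaagtTTTGGCGCcaag
Mcm5, −153 to −146: aagaacTTTCGCGCcaaaac
Mcm6, −47 to −40: gacgggTTTGGCGCgaagta
Mcm7, 17 to 24: acgacgTTTCGCGCcaattt
Cdt1, 33 to 40: taccttTTTGGCGCcatggc
Cdc25a, −67 to −60: attccgTTTGGCGCcaacta
Cdk2, −140 to −133, on the other strand: ggaactGCGGGAAAgttgtg
Rfc3, −10 to −3: gcacgcTTTCGCGCtcgcgg

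Values of genes with and without these letters overlapped. At the target with the highest mean, the 12 genes with a motif had a median log2 difference of −0.23, with 8 negative. The 16 genes with a promoter and no such letters had −0.41, with 10 negative. Mcm3 has 2 motifs and −1.44, Mcm5 has an overlapping pair and −0.00 and −0.35, and Mcm2 and Pcna have no such letters in these windows and −1.28 and −0.89. These are descriptions of letters, with no test of a factor. The promoters of these 4 genes are given in full, as examples of both kinds, with the motif and CCAAT on either strand in capitals.
Mcm3 (chr1:20820263-20820562, minus strand): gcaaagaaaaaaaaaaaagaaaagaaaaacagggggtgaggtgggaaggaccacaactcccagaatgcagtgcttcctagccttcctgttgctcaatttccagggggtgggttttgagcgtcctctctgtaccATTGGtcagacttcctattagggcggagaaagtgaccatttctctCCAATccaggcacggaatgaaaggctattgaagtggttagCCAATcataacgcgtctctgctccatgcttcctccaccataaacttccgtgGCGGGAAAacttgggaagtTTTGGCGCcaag
Mcm5 (chr8:75109259-75109558, plus strand): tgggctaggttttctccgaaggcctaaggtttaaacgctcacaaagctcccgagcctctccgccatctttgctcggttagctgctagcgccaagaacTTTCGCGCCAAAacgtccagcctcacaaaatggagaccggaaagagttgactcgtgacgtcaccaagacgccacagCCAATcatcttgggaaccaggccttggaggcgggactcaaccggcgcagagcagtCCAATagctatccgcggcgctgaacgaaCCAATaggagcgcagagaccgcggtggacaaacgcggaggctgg
Mcm2 (chr6:88898731-88899030, minus strand): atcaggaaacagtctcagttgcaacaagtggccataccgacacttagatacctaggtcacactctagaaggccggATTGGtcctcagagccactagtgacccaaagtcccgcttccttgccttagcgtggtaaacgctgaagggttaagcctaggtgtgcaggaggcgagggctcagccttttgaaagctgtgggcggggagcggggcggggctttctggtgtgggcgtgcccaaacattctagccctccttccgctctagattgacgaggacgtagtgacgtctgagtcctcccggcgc
Pcna (chr2:132253131-132253430, minus strand): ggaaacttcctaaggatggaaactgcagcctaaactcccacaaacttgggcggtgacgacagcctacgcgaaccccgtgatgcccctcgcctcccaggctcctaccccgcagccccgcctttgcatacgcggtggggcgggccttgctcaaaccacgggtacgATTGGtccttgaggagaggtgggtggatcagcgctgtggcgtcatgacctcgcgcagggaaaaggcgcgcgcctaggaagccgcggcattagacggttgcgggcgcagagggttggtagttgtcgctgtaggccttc

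**Figure D5:**
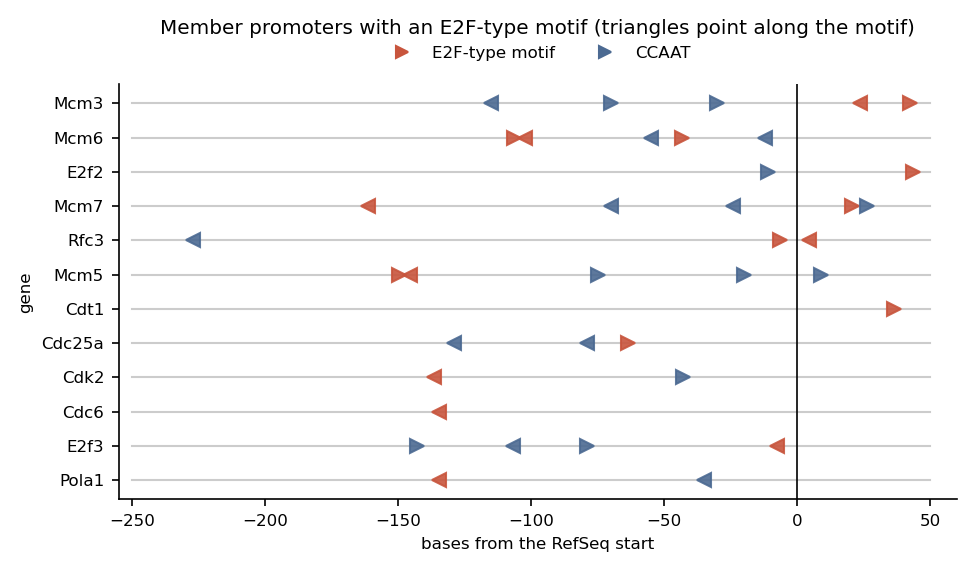
Positions of E2F-type motifs and of CCAAT (triangles, pointing along the motif) in the 12 promoters of the set with an E2F-type motif, as bases from the RefSeq start (x axis) for each gene (y axis). First bases of the motifs lie from −165 to 40, and Mcm5, Mcm6, Mcm7, Mcm3 and Rfc3 carry more than 1.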

How the data were processed

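Per the file headers, each array file holds the authors' deposited intensity per target, on a linear scale; the names of the files give RMA (robust multi-array average) as the summary. Background correction and scanner software are not stated in the labels or headers. The labels' protocols name NimbleGen labelling, whereas the series text names Agilent arrays. A control row of 5000 random probes was left out. For the 33 targets of the set listed in the series' value table, its values equal those of the same group's array files (relative tolerance 1e-04), but the scramble siRNA columns are exchanged. The image name inside the file of Men1 siRNA replicate 1 carries the number 2. Replicate numbers are therefore uncertain, and groups are not affected.

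Targets were taken by the gene name in the files, where Cdc45 is written Cdc45l. Log2 intensities, with no pseudocount, were fitted on all 44170 targets with limma (3.58.1; lmFit, eBayes), the group being the sole term, in R (4.3.3), and p-values were adjusted by Benjamini-Hochberg. The fit was tested on simulated data, the outcome of which is not reported here and is not used as support. Tables and figures were made with matplotlib (3.10.9), numpy (2.4.6) and pandas (2.3.3) under Python (3.11.15). Where both arrays of a group were under 100, "at least" gives the bound with those arrays at 100. Target coordinates are on MM9 and promoters on GRCm38.p6. With 2 arrays per group, the smallest two-sided p of an exact permutation test is 0.33. The number of arrays limits the precision. Limma's SEs and p-values combine each target's own spread with a prior over all targets (SD 0.391, 4.01 degrees of freedom). Pcna BC010343, whose arrays agree closely within each group, thus still has an SE of 0.32.

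The members and the comparison lists were chosen with earlier results of these data known. The naming rule gives values per array for the target with the highest mean of each gene that has a target at an unadjusted p under 0.05, for both Cdc25a targets, and for genes whose targets differ in sign and whose target with the highest mean reached 100 on all arrays. Outside the set it names Men1 and up to 4 genes per list by smallest p. Values per array of the other targets and genes of the set go beyond that rule and were added after their values were seen, as were the markers named for their level (Th, Stmn2, Chga, Chgb, Hba-a1, Hbb-bh1, Cldn3, Cldn4, Grhl2 and Tek); 1 further marker is not reported here. Alternatives were a replicate block, each array left out, 3 normalizations, the value table, a filter on dim targets, other priors, a pseudocount of 32 and values per gene. A crossed block, a floor at 100 and bounds with each array left out were added after seeing the data.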

Additional observations from a re-analysis of the deposited data

How the results depend on the processing

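The same-numbered arrays of the groups share only a number, and their deviations correlated at −0.167 across targets. With the replicate block, 12 targets were called higher and 132 lower, 0 of the set passed and 6 of its targets had an unadjusted p under 0.05 and a negative sign. The median stayed at −0.35 by construction, since a block cannot change the group difference when each group has an array in each block. With crossed numbers as a block, chosen after seeing the data, 11 were called higher and 154 lower.

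With 1 array left out, 0 targets of the series passed in limma, the set's targets at an unadjusted p under 0.05 numbered 5 to 6 lower and 1 to 3 higher, and their median ranged from −0.40 to −0.20, the latter without scramble siRNA replicate 2. Counts over all targets were 66 higher and 472 lower in the value table, 40 and 411 with the filter on dim targets, 178 and 892 with a prior that follows intensity, 23 and 364 with a pseudocount of 32, 35 lower with a floor at 100, 85 lower with 1 target per gene and 82 lower with the mean of a gene's targets. The value table (20620 targets), the filter (27449) and the last 2 settings test fewer rows than the 44170, and the part of that in the counts was not tested; nor was the cause for the other settings. Of the set, 1 target (Pcna BC010343) passed with the prior that follows intensity and with the floor at 100. The median of the set was −0.27 with a pseudocount of 32 and −0.05 with the floor, which sets differences between dim values to 0. At an unadjusted p under 0.05, 1 target was higher with 1 target per gene and 0 with the mean of targets.

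Of 908 values of single targets under these settings, 863 kept sign and side of the threshold, 43 turned sign and 2 are those of Pcna above. Of the 59 targets, 35 never turned sign. Both replicate blocks, the other priors, the filter on dim targets, the value table and 1 target per gene give the same log2 difference by construction. No target of the set passed in the main fit, so the side could change only towards passing. The 863 therefore does not measure how stable the values are. In settings that kept all arrays, the sign turned for Cdc6 BC052434 (0.01), Mcm5 AK051795 (0.02) and Rfc3 AK013095 (0.01) with median normalization, for Mcm5 AK051795 (0.04) and Tyms AK164981 (−0.01) with quantile normalization and for Cdt1 BC048076 (−0.01) and Tyms AK164981 (−0.03) with cyclic loess. Pola1 AK139486 had 0.21 with the floor, and the mean of targets gave −0.25 for E2f3, 0.06 for Gins1 and −0.10 for Fen1. With 1 array left out, the sign turned for 22 targets, here with their lowest and highest values: Ccne2 BC053727 (−0.99 to 0.12), Cdk6 BC119360 (−0.11 to 1.28), E2f2 BC062101 (−1.33 to 0.80), E2f3 AK165892 (−1.72 to 0.35), Cdc6 AK162669 (−0.92 to 0.23), Cdc6 BC052434 (−0.22 to 0.21), Cdt1 BC048076 (−0.37 to 0.38), Mcm5 AK051795 (−0.22 to 0.21), Cdc45 AK167850 (−0.90 to 0.17), Gins2 BC082565 (−0.62 to 0.23), Fen1 AK042942 (−0.04 to 0.77), Fen1 AK187493 (−1.30 to 0.17), Pola1 AK139486 (−1.10 to 0.74), Pole BC048166 (−1.24 to 0.17), Pole AK171004 (−0.30 to 0.60), Pole BC002275 (−0.68 to 0.29), Rfc3 AK165891 (−0.18 to 0.41), Rfc3 BC026795 (−0.20 to 0.45), Rfc3 AK013095 (−0.17 to 0.15), Rfc4 AK147030 (−0.73 to 0.21), Rfc4 AK196924 (−0.09 to 0.41) and Tyms AK164981 (−0.37 to 0.41). By construction each such value rests on 3 arrays.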
